A study of Homo sapiens with 4 samples.

Results

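Integrin subunits and the core proteins of focal adhesions were followed in SH-SY5Y cells after knockdown of TSPAN8. The members were 39 genes listed by family and role: the integrin alpha and beta subunits, both talins, the kindlins (FERMT1, FERMT2 and FERMT3), vinculin, paxillin, focal adhesion kinase (PTK2), integrin-linked kinase (ILK), PARVA, PARVB, ZYX and LIMS1. A probe set, the unit of the array, was taken as a member where the platform annotation gave it a single gene symbol and that symbol was on the list. This rule found 113 of the 54613 probe sets, for 38 of the 39 genes. ITGB6 had no probe set of its own. The 4 probe sets that list it together with another gene were not used, and neither were 2 of that kind for LIMS1.

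SH-SY5Y is a human neuroblastoma line of sympathetic, noradrenergic character. In the knockdown group (2 arrays), cells received small interfering RNA against TSPAN8 by the self-delivering Accell system; the transfection control group (2 arrays) was handled in parallel, but the labels do not say what these cells received. Incubation lasted 72 h in both groups, after which 100 ng of RNA per sample was labelled for 1 array each. Whether replicates were separate cultures is not stated either, so p-values here reflect a spread that may be technical only.

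Integrins are receptors made of 1 alpha and 1 beta subunit that hold cells to the extracellular matrix or to other cells. The alpha subunit largely sets the ligand, whereas the short tail of most beta subunits binds talin and kindlin inside the cell, which switch the receptor to its active state and tie it to actin. Around these tails a focal adhesion is built: ILK, LIMS1 (PINCH1) and a parvin form a scaffold with kindlin, vinculin and zyxin reinforce the link to actin, and PTK2 and paxillin signal from the site. Tetraspanins such as the TSPAN8 protein sit beside integrins in the membrane, and in rat carcinoma cells Tspan8 was found in complexes with the laminin receptor made of ITGA6 and ITGB4. The comparison asks how the transcripts of these receptors and their inner machinery stand when TSPAN8 is silenced.

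The targeted gene was lower: TSPAN8 read 6.25 and 6.35 (log2) in knockdown and 7.52 and 7.62 in control cells, a difference of -1.27 ± 0.062 (SE; limma, adjusted p = 0.0026). Array medians lay between 6.58 and 6.61, and Pearson's r between arrays, across probe sets that are not independent replicates, was 0.997 to 0.998. Of the neuroblast markers, 8 of 9 measured had a mean signal above the median of all probe sets, among them PHOX2A, GATA3, ISL1 and DBH, whereas TH, the tyrosine hydroxylase gene, was below it. All but 1 of the 9 were below control, whereas 44.4% of all genes were above it. Their median difference was -0.059, beside -0.0094 for all genes. The 3 furthest below were DBH at -0.35, CHGA at -0.29 and CHGB at -0.20 (limma, adjusted p from 0.58 to 0.61). The 9 averaged 10.65 and 10.73 (log2) in knockdown and 10.80 and 10.80 in control cells. Of 9 mesenchymal or fibroblast markers, 8 were above the median of all probe sets and 7 were above control, against 44.4% of all genes. Their mean log2 value was 9.64 and 9.36 on knockdown replicates 1 and 2 and 9.36 and 9.25 on the control arrays. Knockdown replicate 1 thus stood apart on the mean, but not on each gene. DCN read 10.06 and 9.19 in knockdown and 9.17 and 9.09 in control cells, whereas PDGFRB read 7.66 and 7.71 against 7.71 and 7.67. The part of either marker list in the integrin results was not tested. Of 7 measured leukocyte markers 2 lay above that median, and PTPRC, which encodes the leukocyte antigen CD45, read 5.92 and 5.88 in knockdown and 5.93 and 5.91 in control cells, well below it.

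None of the 113 member probe sets passed the threshold (limma, adjusted p under 0.05 over all 54613 probe sets, where 0.00183% passed). The adjusted p of the members was 0.58 or higher. At an unadjusted p under 0.05 there were 6 member probe sets, 5.31% of them, against 7.83% of all probe sets. Of these, 5 were above control, 4.42% of members against 3.72% of all probe sets, and 1 was below, 0.885% against 4.12%. The arrays of the groups did not overlap for 37 member probe sets, 32.7%, against 37.5% of all probe sets. Knockdown was the higher group in 23, 20.4% of members against 17.7% of all probe sets, and the lower in 14, 12.4% against 19.8%. On both counts the members' share was thus under the background over both directions together, slightly above it for higher values and under it for lower ones.

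The differences were small in either direction. A gene with several probe sets is represented by the one of highest mean signal, and differences are knockdown minus control on the log2 scale with limma's standard error. Over the 38 genes they ran from -0.15 for TLN2 to 0.22 for ITGA2B, that is, from 0.900 to 1.16 times the control signal. The median size of a difference was 0.043 for member genes and 0.048 for all 19775 genes. In 30 of the 38 genes the arrays of 1 group lay further apart than the group means did. The same count was not made for all genes. Their median gap was 0.063 within the knockdown pair and 0.057 within the control pair, both above their median difference of 0.048. The 95% confidence interval, not adjusted for the number of genes, lay within 1.25-fold in either direction for 37 genes and within 1.5-fold for all 38. ITGA2B was the exception at 1.25-fold among representative probe sets, with an interval of 0.099 to 0.34. Of all 113 member probe sets, 110 had intervals within 1.25-fold and 113 within 1.5-fold. Beside that of ITGA2B, another probe set of FERMT2 (0.030 to 0.36) and of ITGA4 (-0.33 to 0.041) reached past 1.25-fold. These intervals bound the change in array signal; near background, where summarised values compress a change, they do not bound the transcript.

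**Figure D1:**
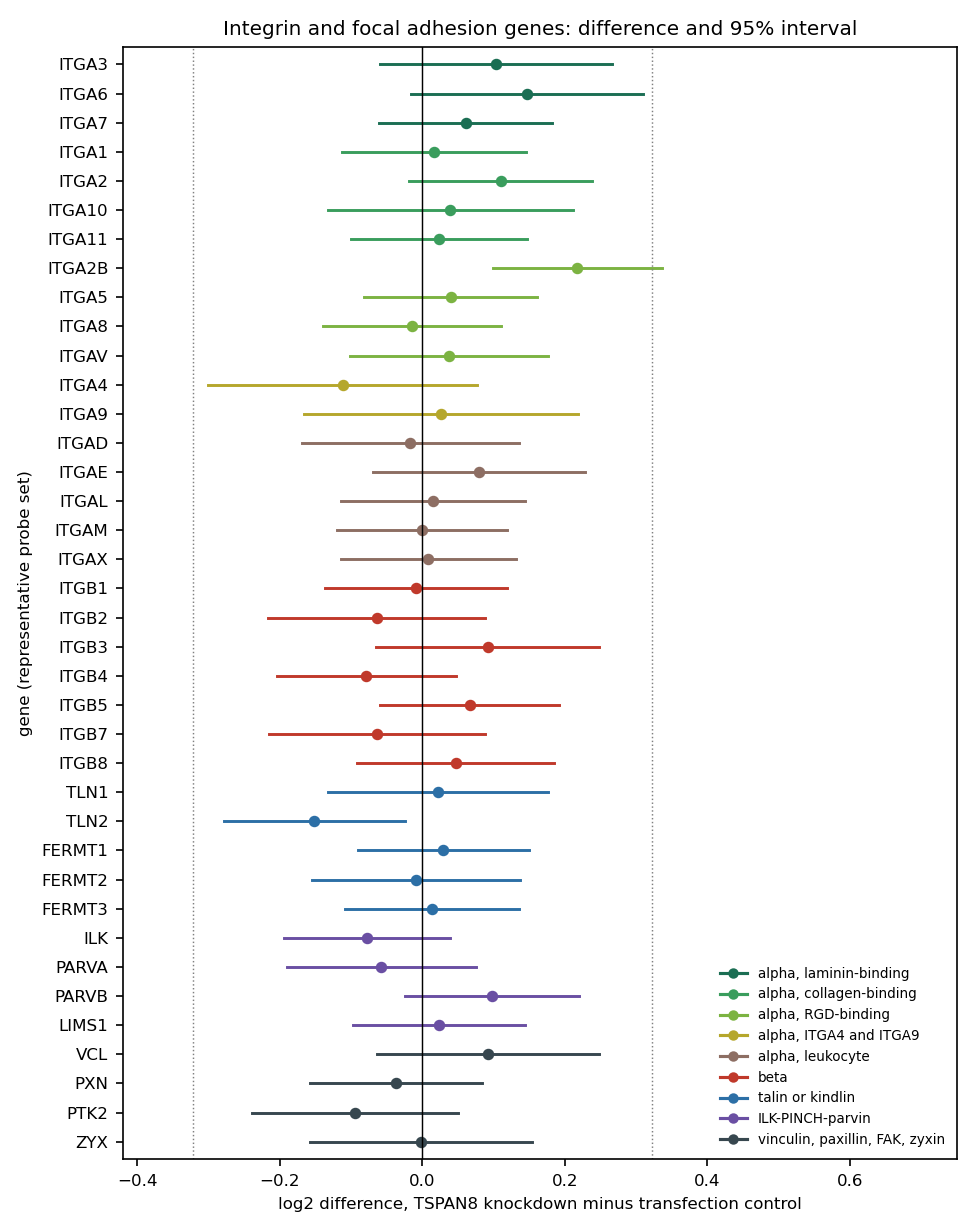
Log2 difference, knockdown minus control, of 38 integrin and focal adhesion genes at the representative probe set (points) with limma's 95% confidence interval (bars), coloured by role; dotted lines mark 1.25-fold in either direction. The points lie between -0.15 (TLN2) and 0.22 (ITGA2B), and 37 of the 38 bars stay between the dotted lines.

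The laminin-binding alpha subunits come first, since they include the subunit found with Tspan8. ITGA6, the alpha subunit of both laminin receptors that pair it with ITGB1 or ITGB4, read 7.94 and 7.80 in knockdown and 7.79 and 7.65 in control cells. The groups did not overlap, but the lower knockdown array exceeded the higher control array by little, and each group's arrays were about as far apart as the group means. The difference was 0.15 ± 0.070 (SE; limma, adjusted p = 0.65), and the other ITGA6 probe set differed by 0.086. ITGA3, which forms another laminin receptor with ITGB1, read 6.63 and 6.71 in knockdown and 6.48 and 6.66 in control cells on its single probe set. Its arrays overlapped, with control replicate 1 the lowest of the 4. The difference was 0.10 ± 0.070 (SE; limma, adjusted p = 0.76), and 0.015 without control replicate 1. ITGA7, the laminin receptor subunit best known from muscle, differed by 0.061 at its representative and by -0.10 at its other probe set. ITGB4, the partner of ITGA6 in hemidesmosomes, differed by -0.078, with knockdown arrays at 6.72 and 6.79 and control arrays at 6.82 and 6.85. Of its 5 probe sets 3 were above control and 2 below. The values of ITGA3 and ITGB4 were near the array medians, where part of the signal can be background.

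Among the collagen-binding alpha subunits, ITGA2 differed by 0.11 ± 0.055 (SE; limma, adjusted p = 0.67), with both of its probe sets above control. ITGA1 differed by 0.016, ITGA10 by 0.039 and ITGA11 by 0.024, and the arrays of the groups overlapped for these 3 genes.

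The alpha subunits that recognise the arginine-glycine-aspartate motif of fibronectin, vitronectin and other ligands were ITGA2B, ITGA5, ITGA8 and ITGAV. ITGA2B, which with ITGB3 forms the fibrinogen receptor of platelets, had the largest difference and the smallest p of any member. Its representative probe set read 6.59 and 6.61 in knockdown and 6.37 and 6.40 in control cells, a difference of 0.22 ± 0.051 (SE; limma, adjusted p = 0.58). The 2 groups were well separated and each was tight, but all 4 values were close to the array median, where part of the signal can be background. The other 3 probe sets of ITGA2B had lower values, between 5.63 and 6.27, and differed by 0.0034, 0.051 and 0.15. Among the other platelet markers, PF4 was at 6.74 and 6.74 in knockdown and 6.62 and 6.49 in control cells, GP9 differed by 0.13, GP1BA by -0.042 and PPBP by -0.066. Their part in the ITGA2B values was not tested.

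ITGAV, the shared alpha subunit of the vitronectin receptors, read 11.16 and 11.04 in knockdown and 11.05 and 11.08 in control cells. The control values lay between the knockdown values, and the difference was 0.037 ± 0.060 (SE; limma, adjusted p = 0.93), with an interval of -0.10 to 0.18. ITGA5, the main fibronectin receptor subunit, differed by 0.040, and ITGA8, its relative in kidney and smooth muscle, by -0.014.

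ITGA4 and ITGA9 form a family of their own that binds VCAM1, tenascin and parts of fibronectin and is used by migrating neural crest cells. ITGA4 read 7.52 and 7.31 in knockdown and 7.60 and 7.46 in control cells, with knockdown replicate 2 the lowest of the 4. The groups overlapped, and the difference was -0.11 ± 0.082 (SE; limma, adjusted p = 0.78); it was -0.0058 without knockdown replicate 2. Of its 4 probe sets 3 were below control. ITGA9 read 10.09 and 9.86 in knockdown and 10.00 and 9.90 in control cells, a difference of 0.027. The 2 knockdown arrays differed by 0.24 for ITGA9 and by 0.21 for ITGA4, and replicate 1 was the higher one in both groups for both genes.

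The alpha subunits named for leukocytes were ITGAD, ITGAE, ITGAL, ITGAM and ITGAX. Their differences ran from -0.017 to 0.079 with overlapping arrays. ITGAL, ITGAM and ITGAX were below the median of all probe sets in mean signal. ITGAE, which pairs with ITGB7 to bind E-cadherin, was not: its single probe set read 11.13 and 11.08 in knockdown and 10.95 and 11.10 in control cells. The beta subunits of these receptors, ITGB2 and ITGB7, differed by -0.064 and -0.063, again with overlap. ITGB2 read 6.60 and 6.76 in knockdown and 6.75 and 6.73 in control cells.

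ITGB1 is the beta subunit shared by most integrins of adherent cells. Its representative probe set read 12.89 and 12.81 in knockdown and 12.84 and 12.87 in control cells, with the control values between those of the knockdown. The difference was -0.0085 ± 0.055 (SE; limma, adjusted p = 0.99), with an interval of -0.14 to 0.12. The 7 probe sets of ITGB1 differed by -0.086 to 0.079, with 6 below control. On the 4 arrays, 3 of them had values of 10.23 or more and the other 4 stayed below the lowest array median of 6.58, so a low value at 1 probe set does not show that a transcript is absent.

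**Figure D2:**
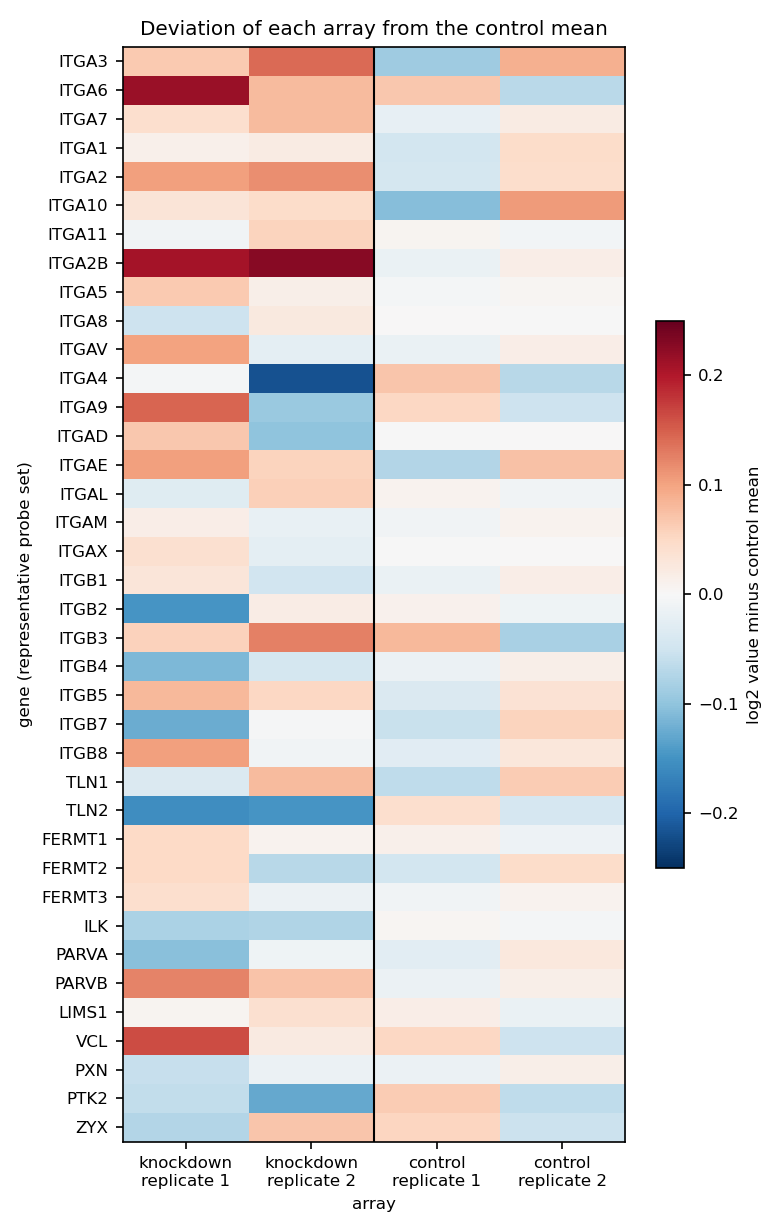
Deviation of each array from the control mean (log2, colour; red above, blue below) for 38 member genes, grouped by role, knockdown arrays on the left of the line. ITGA2B is above the control mean on both knockdown arrays and TLN2 and ILK below it, whereas ITGA4, ITGA9 and ITGB2 differ more between the 2 knockdown arrays than between the groups.

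The beta subunits that pair with ITGAV were ITGB3, ITGB5 and ITGB8. ITGB3 read 6.80 and 6.87 in knockdown and 6.83 and 6.66 in control cells, a difference of 0.092 ± 0.067 (SE; limma, adjusted p = 0.78) with overlapping arrays; it was 0.010 to 0.17 with 1 array left out. All 7 of its probe sets were above control, by 0.017 to 0.15. The one with the largest difference read 5.76 and 5.73 in knockdown and 5.60 and 5.59 in control cells. These values are among the lowest on the array, and they did not pass (limma, adjusted p = 0.61).

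ITGB5, a vitronectin receptor subunit, read 9.25 and 9.22 in knockdown and 9.14 and 9.21 in control cells. The groups did not overlap, and the difference was 0.066 ± 0.054 (SE; limma, adjusted p = 0.81). Of its 4 probe sets 2 were above control and 2 below. ITGB8, whose receptor with ITGAV releases active TGF-beta, read 7.55 and 7.43 in knockdown and 7.42 and 7.47 in control cells, a difference of 0.047 with overlap.

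Over all integrin genes, 14 of 18 alpha subunits and 3 of 7 beta subunits were above control at the representative probe set, against 44.4% of all genes. The median difference was 0.032 for alpha and -0.0085 for beta subunits, beside -0.0094 for all genes. These shares mostly count values close to 0: the groups did not overlap for 5 alpha and 2 beta subunits, together 28.0% of integrin genes, against 38.5% of all genes. All 5 alpha subunits without overlap were above control (ITGA2, ITGA2B, ITGA5, ITGA6 and ITGA7), 27.8% of the 18 against 14.3% of all genes. For ITGA5 the lower knockdown array read 6.87 and the higher control array 6.86. The other probe set of ITGA7 was without overlap below control, at -0.10. Of the beta subunits without overlap ITGB5 was above and ITGB4 below control, each 14.3% of beta subunits, against 14.3% and 24.2% of all genes. None of them passed (limma, adjusted p of 0.58 or higher), and ITGA2B alone had an unadjusted p under 0.05 (limma) at the representative probe set. The alpha median was 0.069 for knockdown minus control replicate 1 and -0.0046 for replicate 2. For all genes these medians were -0.0087 and -0.018. Over all member genes they were 0.045 and -0.021. Crossed, the member medians were 0.018 (knockdown 1 minus control 2) and 0.016 (knockdown 2 minus control 1). No label pairs the arrays, so these medians do not place the lean above control on 1 replicate.

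Talins and kindlins bind the beta tails directly. TLN2, the talin most abundant in brain and heart, was the member furthest below control. It read 7.86 and 7.87 in knockdown and 8.06 and 7.98 in control cells, so that the groups did not overlap. The difference was -0.15 ± 0.055 (SE; limma, adjusted p = 0.61), but its other 2 probe sets differed by -0.020 and 0.031. TLN1, the widely expressed talin, read 7.49 and 7.61 in knockdown and 7.46 and 7.59 in control cells, with replicate 2 the higher one in both groups. Its difference was 0.022 ± 0.067 (SE; limma, adjusted p = 0.97), and its other probe sets differed by -0.13 and 0.086.

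FERMT2 (kindlin-2), the kindlin of most adherent cells, read 12.67 and 12.55 in knockdown and 12.57 and 12.66 in control cells, a difference of -0.0094 at the representative probe set. Another of its 3 probe sets, of a kind (_x_at) that can bind several transcripts, read 11.01 and 10.82 in knockdown and 10.75 and 10.69 in control cells. That difference, 0.20 ± 0.072 (SE; limma, adjusted p = 0.61), rested largely on knockdown replicate 1. It was called without knockdown replicate 2 (0.29; limma, adjusted p = 0.033), a setting in which 1026 probe sets, 1.88% of all, were called and this was the single member among them. FERMT1, known from epithelia, differed by 0.030 and FERMT3, known from blood cells, by 0.014.

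**Figure D3:**
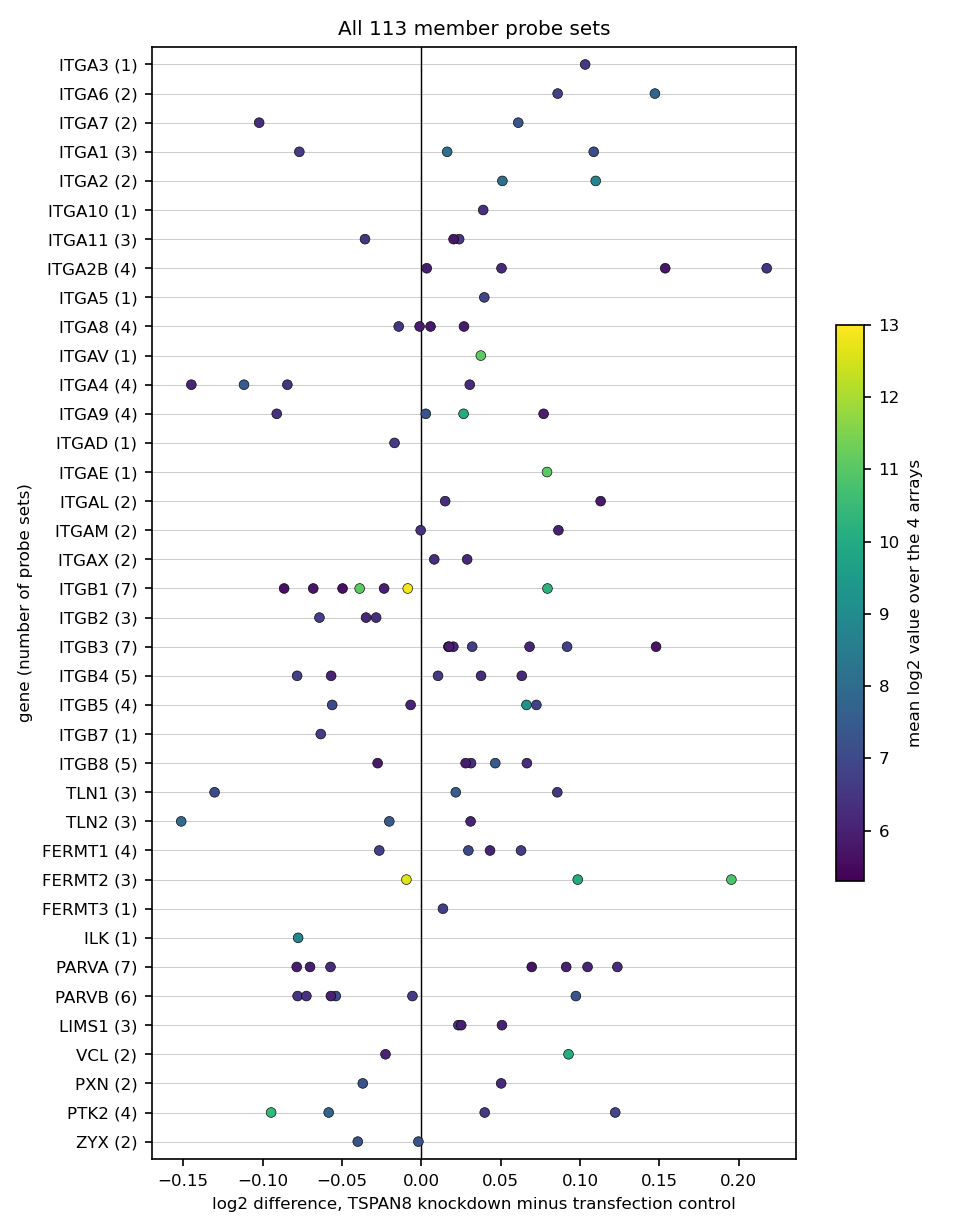
Log2 difference, knockdown minus control, of each of the 113 member probe sets by gene, with the number of probe sets in brackets and the mean log2 value over the 4 arrays as colour. Probe sets of 1 gene often fall on both sides of 0, as for TLN2, FERMT2, PARVA and PTK2, whereas the 7 of ITGB3 and the 4 of ITGA2B lie above it.

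The ILK scaffold joins the beta tail and kindlin to actin. ILK, its pseudokinase core, read 8.74 and 8.74 in knockdown and 8.82 and 8.81 in control cells on its single probe set. The arrays of each group were close together and the groups did not overlap, yet the difference was small, at -0.078 ± 0.051 (SE; limma, adjusted p = 0.74). It ranged from -0.082 to -0.073 with 1 array left out, but was -0.041 after a second quantile normalization. LIMS1 differed by 0.023 with its 3 probe sets above control; near-identical copies of this gene exist, so its probes may also read those. PARVA, a parvin that binds ILK and actin, read 6.25 and 6.34 in knockdown and 6.33 and 6.38 in control cells, a difference of -0.057. Another probe set lay on the other side, with 6.34 and 6.32 in knockdown and 6.23 and 6.19 in control cells (0.12; limma, adjusted p = 0.63), and 4 of its 7 probe sets were above control. PARVB differed by 0.097 at the representative probe set, while its other 5 were below control.

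Vinculin binds stretched talin and actin. VCL read 10.15 and 10.01 in knockdown and 10.04 and 9.93 in control cells, with replicate 1 the higher one in both groups and the groups overlapping. The difference was 0.093 ± 0.067 (SE; limma, adjusted p = 0.78), and 0.022 to 0.16 with 1 array left out. PTK2, the tyrosine kinase that signals from new adhesions, read 10.40 and 10.33 in knockdown and 10.53 and 10.40 in control cells, a difference of -0.095 ± 0.062 (SE; limma, adjusted p = 0.75), and -0.16 to -0.031 with 1 array left out. Its 4 probe sets were split, 2 above and 2 below control. Paxillin (PXN), the adaptor that PTK2 phosphorylates, read 7.17 and 7.21 in knockdown and 7.21 and 7.24 in control cells, a difference of -0.037. ZYX, which gathers at strained actin, read 7.21 and 7.35 in knockdown and 7.33 and 7.23 in control cells, a difference of -0.0018. Of the 13 core genes 6 were above and 7 below control, with a median of -0.0018.

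**Figure D4:**
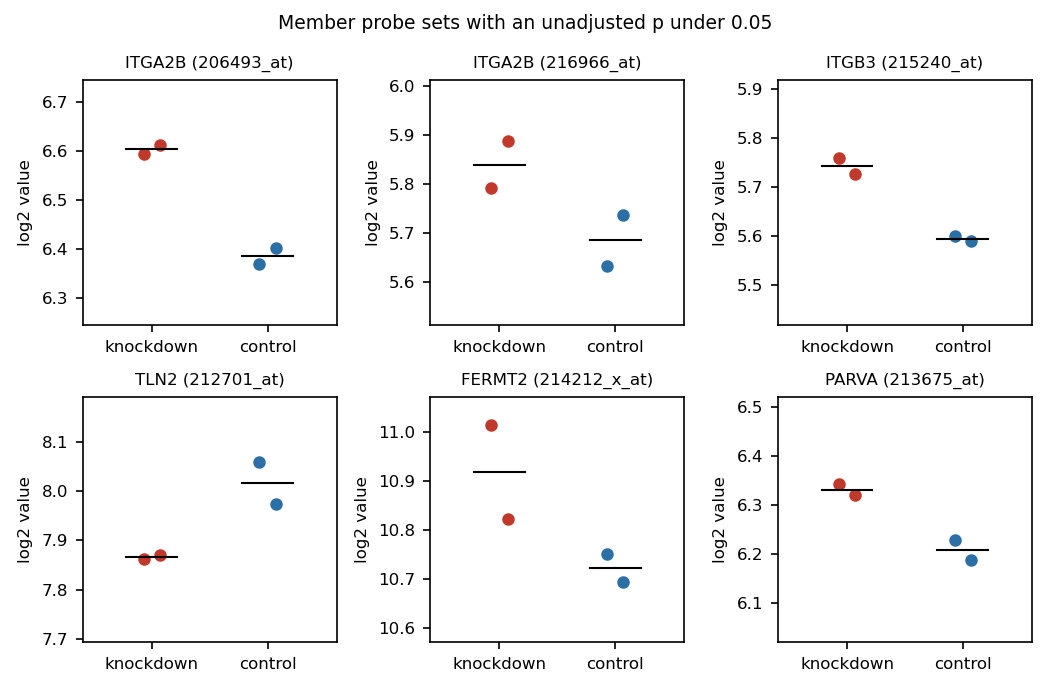
Log2 values on each array (points; bars are group means, n = 2 each) of the 6 member probe sets with an unadjusted p under 0.05, each panel spanning the same range of 0.5. The groups do not overlap in any panel, which choosing panels by p in the same arrays favours. The TLN2 probe set is the one lower in knockdown, and none passed after adjustment.

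Where a gene had more than 1 probe set, as 29 genes did, the probe sets shared a sign in 9. ITGA2, ITGA2B, ITGA6, ITGAL, ITGAX, ITGB3 and LIMS1 were above control throughout, and ITGB2 and ZYX below. Half-widths of the 95% interval at the representative probe set were 0.12 to 0.19, with a median of 0.13. Across the 4 arrays, the median member gene lay 0.036 and 0.017 above the control mean on knockdown replicates 1 and 2, against -0.0092 and 0.0092 on the control arrays. The median size of the gap over member genes was 0.068 within the knockdown pair and 0.047 within the control pair. For all genes it was 0.063 and 0.057. Counted by probe set, it was 0.065 and 0.043 for members, beside 0.064 and 0.058 for all probe sets.

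**Figure D5:**
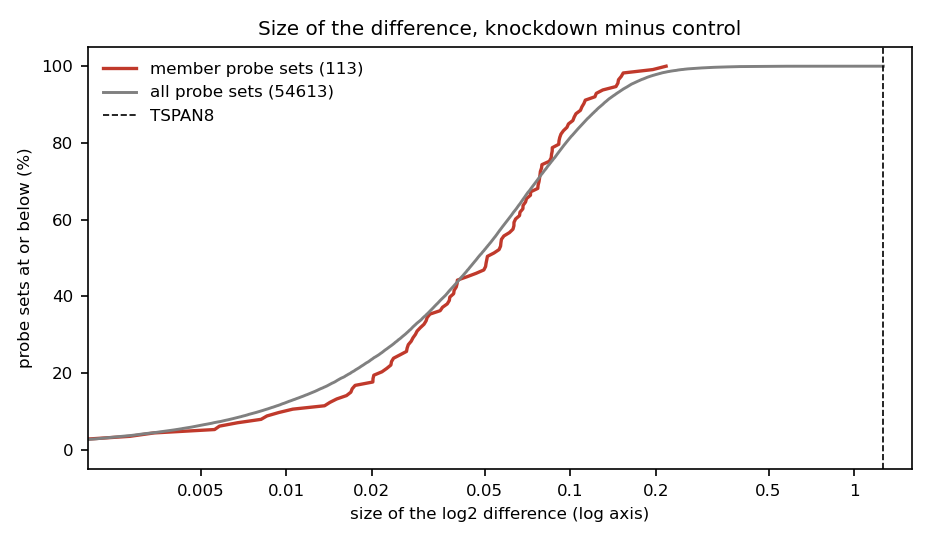
Share of probe sets (%) whose log2 difference is at or below a given size (log axis), for the 113 member probe sets (red) and all 54613 probe sets (grey), with TSPAN8 as a dashed line. The curves run close together, with a median size of 0.051 for members and 0.047 for all probe sets, and no member exceeds 0.22.

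Genes around these receptors were read from 5 lists, with each gene at its representative probe set and 7.96% of all genes at an unadjusted p under 0.05. No gene of any list passed over all probe sets (limma, adjusted p under 0.05). Of 34 measured integrin ligands, 23 were above control, with a median difference of 0.058 beside -0.0094 for all genes, and 3 had an unadjusted p under 0.05. CCN1, a matrix-associated ligand of ITGAV receptors, read 8.70 and 8.51 in knockdown and 8.30 and 8.32 in control cells, a difference of 0.29 ± 0.070 (SE; limma, adjusted p = 0.58). L1CAM, a neural adhesion molecule, differed by -0.20 (limma, adjusted p = 0.60) and E-cadherin (CDH1) by 0.12, each with its other probe set on the opposite side of control.

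Of 15 measured genes that switch integrins on or off or recycle them, 2 had an unadjusted p under 0.05 and the median was 0.025. SNX17, which binds the ITGB1 tail and keeps the receptor from degradation, read 10.00 and 10.01 in knockdown and 10.29 and 10.17 in control cells, a difference of -0.23 ± 0.059 (SE; limma, adjusted p = 0.60). SHARPIN, an inhibitor of integrin activation, differed by 0.13 and DOK1, which competes with talin for beta tails, by -0.092.

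Of 34 focal adhesion signalling genes, 23 were below control, with a median of -0.044, and 5 had an unadjusted p under 0.05. NEDD9, a scaffold of the p130Cas family that PTK2 phosphorylates, read 8.78 and 8.61 in knockdown and 8.37 and 8.30 in control cells, a difference of 0.36 ± 0.069 (SE; limma, adjusted p = 0.58). Of its 5 probe sets 2 were above control. FYN, a Src family kinase, read 9.67 and 9.77 in knockdown and 9.94 and 9.97 in control cells, a difference of -0.24 ± 0.056 (SE; limma, adjusted p = 0.58), with 3 of its 5 probe sets below control. ARHGEF7, the exchange factor beta-PIX, differed by -0.16 with 6 of its 9 probe sets above control.

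Of 28 actin linkers, 16 were above control, with a median of 0.0062, and 2 had an unadjusted p under 0.05. SORBS2, an adaptor that binds vinculin, read 7.43 and 7.62 in knockdown and 7.89 and 7.79 in control cells, a difference of -0.32 ± 0.074 (SE; limma, adjusted p = 0.58), and 8 of its 10 probe sets were below control. PDLIM5 differed by 0.15 and the actin-binding NEXN by 0.12. Of 20 membrane partners, 13 were below control, with a median of -0.043, and 3 had an unadjusted p under 0.05. CD46 differed by -0.45 (limma, adjusted p = 0.37), with 1 of its 3 probe sets above control and a mean over them of -0.15. The tetraspanin TSPAN4 differed by -0.18 at its representative and -0.24 at its other probe set, and SLC3A2, the heavy chain of CD98 that binds beta tails, by -0.18. With 1 array left out, the difference ranged from 0.20 to 0.39 for CCN1 and from 0.27 to 0.44 for NEDD9. It ranged from -0.28 to -0.19 for FYN, from -0.41 to -0.22 for SORBS2 and from -0.52 to -0.39 for CD46. These genes were named for their small p in the same data, so their ranges are no separate evidence. In the fit of all 4 arrays none of these differences passed, which does not show that the levels were equal.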

How the data were processed

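The deposited values are log2 expression values, 1 per probe set and array, which the authors made with RMA (robust multi-array average) in R 3.0.1, per the submitters' processing notes; settings are not given in the sources used here. Of 54675 probe sets, 62 AFFX controls were left out. Of the remaining 54613, the platform annotation gave 41091 a single gene, 1801 several and had no entry for 11721. Detection calls, scanner files and scan batches were not used here, so background is unknown per probe set, and values of different probe sets are not ranked as amounts. No genome build is named for these values. The number of arrays limits the precision.

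Knockdown and control were compared with limma 3.58.1 (R 4.3.3; lmFit and eBayes, all 4 arrays, no covariates), adjusted by Benjamini-Hochberg for 54613 tests, at a threshold of 0.05, two-sided; the script was tested on simulated data. Members and lists were chosen with earlier results of these data known, so no test was run over them. Array values are given for members with an unadjusted p under 0.05 at any probe set and for 14 chosen by role; of each list, the 3 genes of smallest p are named. Values given beyond these were chosen after they were seen. The fit was repeated with each array left out, with median-centred or again quantile-normalized values, without dim or without _s_at and _x_at probe sets, with arrayWeights, with a trend and robust option in eBayes, with a replicate block, with genes averaged over their probe sets, and at a threshold of 0.1. Figures were drawn with Python 3.11.15 and matplotlib 3.10.9.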

Additional observations from a re-analysis of the deposited data

How the results depend on the processing

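TSPAN8 kept its direction in each alternative run, and its call except under the replicate block, where the difference of -1.27 had an adjusted p of 0.16 (limma) and 0 probe sets passed; that fit has fewer residual degrees of freedom. No label pairs the samples, and the correlation between same-numbered deviations was 0.051. With 1 array left out, TSPAN8 ranged from -1.32 to -1.22 and the called probe sets from 1 (either control array removed) to 25 (knockdown replicate 1 removed) and 1026 (knockdown replicate 2 removed); such fits take the spread of a single array from the other group. Member probe sets called numbered 0 in each alternative except without knockdown replicate 2, where an _x_at probe set of FERMT2 made it 1. The median over member genes, 0.019, was 0.0052 after median centring, 0.0097 after a second quantile normalization and 0.0058 to 0.036 with 1 array left out. What caused these shifts was not tested.

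Signs turned for 16 of 330 member gene values outside leaving out arrays, and 14 of 38 genes kept their sign in every setting run. After a second quantile normalization ITGAX was at -0.0056, FERMT3 at -0.0011 and ZYX at 0.0049, and after median centring ITGAX was at -0.0056 and FERMT3 at -0.00014. Without _s_at and _x_at probe sets ITGB4 was at 0.038, ITGB5 at -0.056, FYN at 0.072 and ARHGEF7 at 0.060. Averaged over a gene's probe sets, ITGA7 was at -0.021, ITGA8 at 0.0043, ITGAM at 0.043, TLN1 at -0.0076, PXN at 0.0067, PTK2 at 0.0023, FERMT2 at 0.095, PARVA at 0.026, PARVB at -0.028 and ARHGEF7 at 0.0049. This averaging turned or moved by over 1.5 times 23 of the 38 member genes, with ITGA2B at 0.11 and TLN2 at -0.047, and 8 of the 15 named list genes, with NEDD9 at 0.073, SORBS2 at -0.075, CD46 at -0.15, FYN at -0.068, L1CAM at -0.090, CDH1 at 0.054 and PDLIM5 at 0.086. With 1 array left out, 17 member genes changed sign: ITGA1 (-0.029 to 0.062), ITGA8 (-0.052 to 0.024), ITGA9 (-0.093 to 0.15), ITGA10 (-0.068 to 0.15), ITGA11 (-0.0086 to 0.056), ITGAD (-0.10 to 0.067), ITGAL (-0.030 to 0.060), ITGAM (-0.018 to 0.017), ITGAV (-0.025 to 0.10), ITGAX (-0.024 to 0.040), ITGB1 (-0.048 to 0.031), ITGB2 (-0.15 to 0.019), ITGB8 (-0.0094 to 0.10), TLN1 (-0.042 to 0.086), FERMT2 (-0.069 to 0.050), FERMT3 (-0.015 to 0.042) and ZYX (-0.072 to 0.069). Of the 21 that kept their sign, 17 moved by over 1.5 times, all but ITGA2B, TLN2, ILK and PARVB. Without detection calls, signals near the array median limit what can be read from several members. Among them are ITGA2B, ITGA3, ITGA8, ITGA10, ITGA11, ITGB3, ITGB4, FERMT3, PARVA, LIMS1 and the leukocyte subunits other than ITGAE.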
